A study of Mus musculus with 12 samples.

Results

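A set of 8 genes that mark the thalamus and hypothalamus, the deep grey matter of the diencephalon, were followed through brain tissue taken after experimental stroke. The set held Prkcd, Tcf7l2 and Rora for the thalamus and Oxt, Avp, Hcrt, Pmch and Trh for the hypothalamus. They were taken from the raw count table by gene symbol, 8 of 25124 genes, and all 8 were among the 17612 genes with enough counts to be tested. Stroke was induced by occlusion of the middle cerebral artery (MCAo), and tissue was taken 28 days later from the ipsilateral (lesioned) side of the brain and from the intact contralateral side. Wild-type mice were C57BL6/J. The other mice, called DKK1 here, carried Gt(ROSA)26Sortm1.1(rtTA,EGFP)Nagy, Hprttm1(tetO-Dkk1)Spdl and Tg(TCF/Lef1-lacZ)34Efu/J, that is, a doxycycline-dependent activator with EGFP, an inducible gene for the secreted Wnt antagonist dickkopf-1, and a reporter of TCF/LEF activity. Mice of both genotypes had MCAo and were given doxycycline (200 mg/kg), with induction 3 days after MCAo, so no group shows a brain without stroke, and none shows the transgenes without doxycycline. The labels give neither age nor sex, and name no cell type in which the activator is made. Genotype and side made 4 groups, each with 3 libraries. Whether each library stands for an animal of its own is not in the labels, so a p-value covers only the spread seen among these libraries, which may be technical in part.

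Totals ran from 21209920 to 26911840 counts per library, and 19557 to 20272 genes were detected. Dkk1 had 0 counts in all 6 wild-type libraries, where a count of 0 allows up to 3, and 4 to 44 counts in the 6 DKK1 libraries. Over all genes tested, wild-type ipsilateral 1 stood apart from the other libraries of its group: its first principal component score of 70.9 lay among the DKK1 ipsilateral libraries (62.8 to 83.8), and those of the other wild-type ipsilateral libraries were 29.2 and 37.1. Summed pan-neuronal genes, 10 markers of neurons in general, ran from 5452 to 6034 CPM (counts scaled to a common library size) in contralateral and from 3856 to 4746 CPM in ipsilateral libraries. The striatum list had 8 of 8 genes lower on the ipsilateral side in both genotypes, and the cortex list 7 of 9. Scaled on the pan-neuronal genes, striatum had 7 lower in wild-type and 6 in DKK1 mice, and cortex 5 and 2, with 1 cortex gene higher in DKK1 mice. The labels name the tissue only as brain by side, and do not say how it was cut.

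The hypothalamus controls water balance, feeding, arousal and hormone release through small groups of neurons that each make large amounts of 1 peptide. Oxytocin and vasopressin are made in the paraventricular and supraoptic nuclei, orexin and melanin-concentrating hormone in the lateral hypothalamus, and thyrotropin-releasing hormone in the paraventricular nucleus and elsewhere. The thalamus relays sensory and motor signals to the cortex, and its relay neurons express protein kinase C delta, TCF7L2 and RORA. The peptide genes are far higher in these nuclei than in the cortex or striatum, so their level in a piece of brain depends on how much of those nuclei it holds. Rora is less specific, since the cortex also expresses it. In bulk tissue, fewer cells of a type and less RNA per cell cannot be told apart.

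Oxt (oxytocin with its carrier neurophysin) and Avp (vasopressin with its neurophysin) are neighbours on chromosome 2 of mm10. Oxt lies on the plus strand at chr2:130576169-130577053 and Avp on the minus strand at chr2:130580620-130582588, so the genes point towards each other with 3566 bases between them. Each has 3 exons. Exon 2, wholly coding in both, is shown because the genes are nearly alike there: 193 of its 202 bases (95.5%) are identical, with a longest identical run of 125 bases. The sequences are from GRCm38, Oxt at chr2:130576591-130576792 and Avp at chr2:130581056-130581257, each 5′ to 3′ on its own strand, with the 9 bases that differ in capitals.
Oxt exon 2: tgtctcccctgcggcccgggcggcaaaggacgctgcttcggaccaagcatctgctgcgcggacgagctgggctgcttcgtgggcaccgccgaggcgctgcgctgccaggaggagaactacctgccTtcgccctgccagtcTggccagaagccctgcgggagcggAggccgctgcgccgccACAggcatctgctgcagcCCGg
Avp exon 2: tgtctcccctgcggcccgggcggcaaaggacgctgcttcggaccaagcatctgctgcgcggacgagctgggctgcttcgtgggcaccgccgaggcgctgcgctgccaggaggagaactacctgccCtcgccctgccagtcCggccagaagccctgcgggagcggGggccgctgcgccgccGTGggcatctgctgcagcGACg
A read from the shared run could be given to either gene or dropped, and how such reads were counted is not given in the sources used here. Oxt and Avp counts are therefore uncertain to that extent. For every 100 Avp counts there were 7.45 to 46.8 Oxt counts over the 12 libraries. The ratio was 11.4, 12.5 and 7.69 in wild-type contralateral and 9.67, 40.8 and 7.45 in DKK1 contralateral libraries 1, 2 and 3. In ipsilateral libraries it was 14.2 to 46.8. Whether reads from the shared run made up part of the Oxt counts was not tested.

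Oxt rose on the lesioned side of wild-type brains, from a very low level. In wild-type contralateral libraries Oxt stood at 0.338, 0.0428 and 0.845 CPM, which were 9, 1 and 20 counts. In wild-type ipsilateral libraries it was 6.09, 1.94 and 15.3 CPM (163, 49 and 401 counts). The groups did not overlap, and the ipsilateral libraries themselves were spread widely, with number 2 the lowest on both sides. The log2 fold change was 4.24 ± 1.05 (SE; adjusted p = 0.00944, edgeR's quasi-likelihood test with Benjamini-Hochberg adjustment over all genes tested, as for every adjusted p below unless another test is named), a fitted fold of 18.9. Under limma-voom the same change did not pass.

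In the DKK1 mice Oxt was 3.04, 3.90 and 2.40 CPM on the contralateral side, which were 62, 95 and 55 counts. The 3 libraries were close to each other and all lay above the wild-type contralateral ones. On the DKK1 ipsilateral side Oxt was 9.08, 2.06 and 20.7 CPM, where number 2 lay below every DKK1 contralateral library. The DKK1 ipsilateral to contralateral difference did not pass (log2 fold change 1.77 ± 0.83, adjusted p = 0.0967), though it did without DKK1 ipsilateral 2. DKK1 against wild type on the contralateral side gave a log2 fold change of 2.92 ± 1.09, with no overlap, an unadjusted p of 0.0214 and an adjusted p of 0.597, so it did not pass.

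Avp, whose peptide makes the kidney retain water, ordered the libraries as Oxt did in 3 of the 4 groups, at a higher level. It was 2.96, 0.342 and 11.0 CPM in wild-type contralateral libraries and 26.96, 5.87 and 32.6 CPM in wild-type ipsilateral ones. In the DKK1 mice it was 31.4, 9.55 and 32.2 CPM on the contralateral side and 57.7, 14.5 and 80.0 CPM on the ipsilateral side. In every group number 2 was the lowest, and the groups of each pair compared overlapped.

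With libraries of equal number compared, Avp was higher on the ipsilateral side in 6 of 6 pairs, by 9.09, 17.1 and 2.97 times in wild-type and 1.84, 1.52 and 2.49 times in DKK1 mice. Avp did not pass in the fit by groups (log2 fold change 2.20 ± 0.96, adjusted p = 0.0949 in wild type, and 1.06 ± 0.86, adjusted p = 0.327 in DKK1). Without wild-type contralateral 3, Avp passed between wild-type sides, beside 29.6% of all genes. With the library number as a block Avp passed in both genotypes, at 2.40 (adjusted p = 0.00328) and 0.97 (adjusted p = 0.0335). The pairs and the block both assume that libraries of equal number belong together, which the labels do not say. Contralateral Avp was 2.36 ± 0.96 higher in DKK1 than in wild-type mice on the log2 scale, which did not pass (adjusted p = 0.696).

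**Figure D1:**
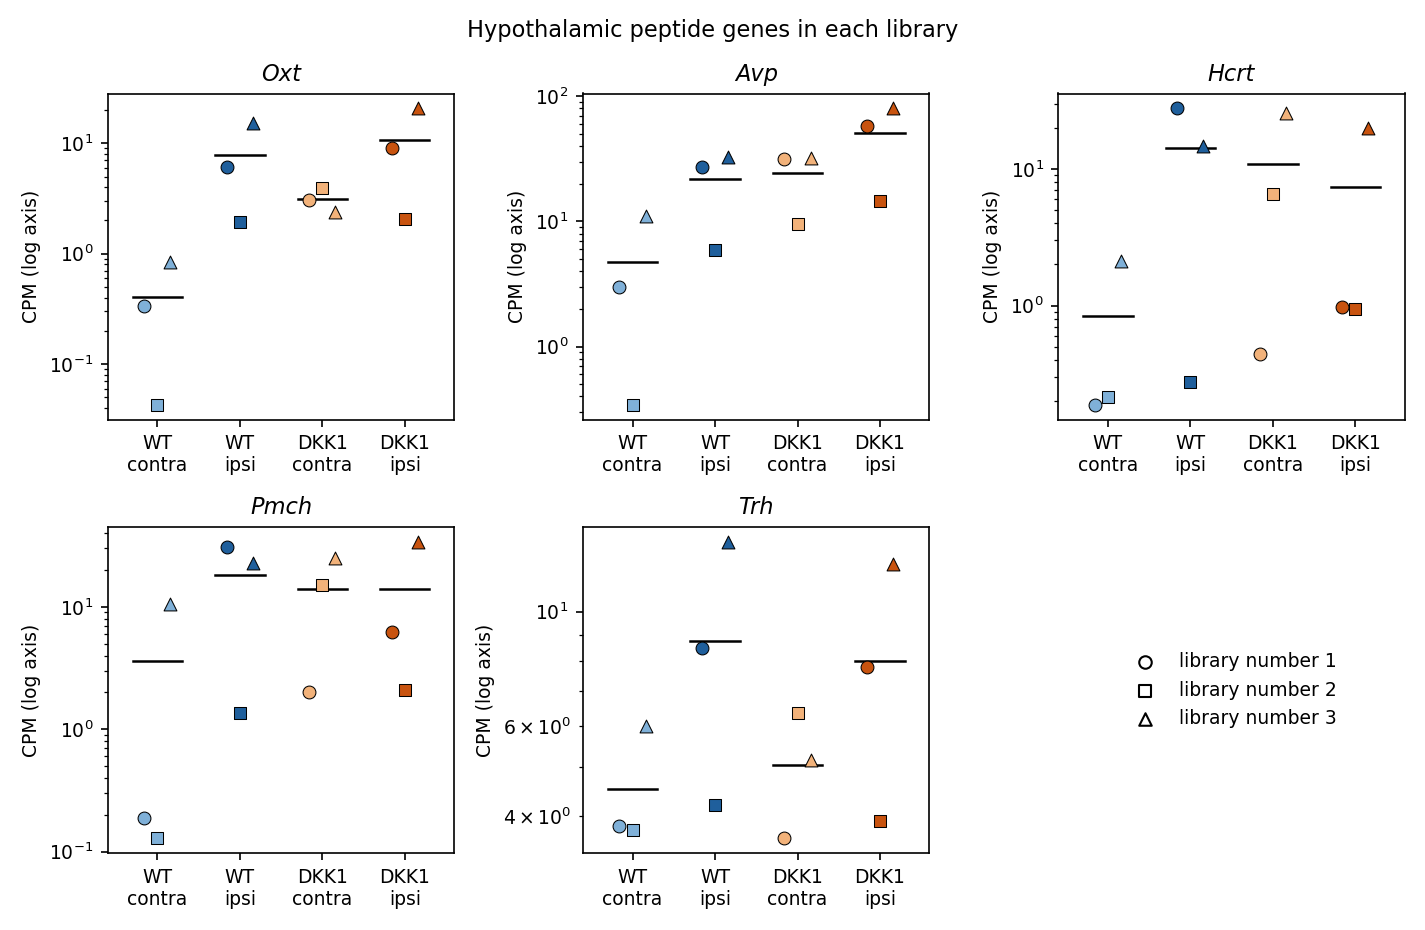
CPM of the 5 hypothalamic peptide genes in each of the 12 libraries, on log axes that differ between panels; markers show the library number and bars the mean of 3 libraries. Number 2 (squares) is the lowest Avp library in each group, and wild-type contralateral 1 and 2 are low for Oxt, Hcrt and Pmch.

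Hcrt encodes the precursor of the orexins, peptides that hold the brain awake, and lies at chr11:100761693-100762931 on the minus strand. Hcrt was 0.188, 0.214 and 2.11 CPM in wild-type contralateral libraries, that is, 5, 5 and 50 counts. Wild-type ipsilateral libraries held 27.8, 0.277 and 14.8 CPM (743, 7 and 388 counts), so number 2 was about as low as contralateral 1 and 2, and the others were high. DKK1 contralateral libraries held 0.441, 6.52 and 25.8 CPM, and DKK1 ipsilateral ones 0.979, 0.949 and 20.1 CPM.

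In both DKK1 groups Hcrt was high in number 3, low in number 1, and the groups overlapped. The wild-type difference between sides was 4.11 ± 1.81 on the log2 scale and did not pass by groups (adjusted p = 0.0976), but passed with the library number as a block (4.04, adjusted p = 0.0241). In pairs of equal number that difference came to 148, 1.30 and 6.99 times, and number 1 had by far the largest. The block and the pairs rest on the same assumed pairing as for Avp. In DKK1 mice the difference was -0.57 ± 1.45 (adjusted p = 0.772). The intervals were wide: the 95% interval of the DKK1 against wild-type difference on the ipsilateral side ran from -4.14 to 2.23.

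Pmch encodes the precursor of melanin-concentrating hormone, which promotes feeding, and lies at chr10:88091072-88092374 on the plus strand. Pmch was 0.188, 0.128 and 10.6 CPM in wild-type contralateral libraries (5, 3 and 250 counts) and 30.7, 1.35 and 22.8 CPM in wild-type ipsilateral ones. DKK1 libraries held 2.01, 15.2 and 25.0 CPM on the contralateral and 6.27, 2.10 and 34.0 CPM on the ipsilateral side. Each group held a library at or above 10.6 CPM and one at or below 2.10 CPM, so all groups overlapped, and no comparison passed with all libraries. Without wild-type contralateral 3, Pmch passed between wild-type sides, beside 29.6% of all genes. The log2 fold change between sides was 2.35 ± 1.48 in wild-type mice (adjusted p = 0.239) and 0.01 ± 1.35 in DKK1 mice (adjusted p = 0.998).

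On the opposite strand, Parpbp (chr10:88091398-88146941), a gene for a PARP1-binding protein, overlaps Pmch by 977 bases. Parpbp counts followed Pmch through the libraries, with 1.09 to 1.57 Parpbp counts per Pmch count in 10 libraries. The ratio was 2.80 and 5.33 in wild-type contralateral 1 and 2, where Pmch had 5 and 3 counts. Whether strand was used in counting is not given in the sources used here, so reads of the shared stretch cannot be assigned, and the counts of both genes are uncertain.

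Trh, the precursor of thyrotropin-releasing hormone, which starts the thyroid axis, lies at chr6:92242061-92244650 on the minus strand. Its range was far narrower, 3.77-fold over the 12 libraries against 485-fold for Oxt. Trh was 3.83, 3.76 and 5.996 CPM in wild-type contralateral, 8.49, 4.20 and 13.7 CPM in wild-type ipsilateral, 3.63, 6.36 and 5.15 CPM in DKK1 contralateral and 7.79, 3.92 and 12.4 CPM in DKK1 ipsilateral libraries. Number 3 was the highest and number 2 the lowest on both ipsilateral sides. The log2 fold change between sides was 0.96 ± 0.46 in wild-type (adjusted p = 0.122) and 0.67 ± 0.46 in DKK1 mice (adjusted p = 0.247), and neither passed.

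The stretches of 250 bases before the start of Oxt, Avp, Hcrt and Pmch are shown because these 4 of the 8 genes varied most between libraries of a group. They are RefSeq's, on GRCm38.p6, each 5′ to 3′ on the strand of its gene. Oxt is from chr2:130575919-130576168 (plus), Avp from chr2:130582589-130582838 (minus), Hcrt from chr11:100762932-100763181 (minus) and Pmch from chr10:88090822-88091071 (plus). Capitals mark matches to the TATA-box core TATAAA, its variant CATAAA, and AGGTCA, the element that nuclear receptors such as RORA bind, on either strand.
Oxt: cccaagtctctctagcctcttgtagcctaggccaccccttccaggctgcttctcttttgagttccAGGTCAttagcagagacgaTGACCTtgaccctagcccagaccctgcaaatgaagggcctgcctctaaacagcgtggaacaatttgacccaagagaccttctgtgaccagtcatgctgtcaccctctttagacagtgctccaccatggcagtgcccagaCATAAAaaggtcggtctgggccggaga
Avp: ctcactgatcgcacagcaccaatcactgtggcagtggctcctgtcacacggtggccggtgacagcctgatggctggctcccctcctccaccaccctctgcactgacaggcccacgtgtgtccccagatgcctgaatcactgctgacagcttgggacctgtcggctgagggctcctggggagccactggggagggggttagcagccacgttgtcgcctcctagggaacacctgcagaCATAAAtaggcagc
Hcrt: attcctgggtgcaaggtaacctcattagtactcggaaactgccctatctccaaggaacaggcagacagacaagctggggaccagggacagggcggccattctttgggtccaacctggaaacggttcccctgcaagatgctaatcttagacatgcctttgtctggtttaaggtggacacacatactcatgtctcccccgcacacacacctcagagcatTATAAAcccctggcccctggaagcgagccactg
Pmch: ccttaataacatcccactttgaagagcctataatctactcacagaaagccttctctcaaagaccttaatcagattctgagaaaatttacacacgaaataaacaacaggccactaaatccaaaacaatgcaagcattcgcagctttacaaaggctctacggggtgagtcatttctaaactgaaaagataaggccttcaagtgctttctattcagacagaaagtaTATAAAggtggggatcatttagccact
Hcrt has TATAAA at position -33 and Pmch at -27, and Oxt and Avp have CATAAA at -27 and -14, counted from the gene's start. Of all 32851 stretches of this length before annotated starts, 12.4% hold TATAAA, 10.8% CATAAA and 14.0% AGGTCA. These shares count a match anywhere in the stretch on either strand, and not one near a given position. Of the other members, Prkcd (-244) and Tcf7l2 (-242, opposite strand) hold TATAAA. Tcf7l2 holds CATAAA on the opposite strand at -63 and -49, before separate starts. Oxt holds AGGTCA in both orientations, at -185 and -166, and of the other members only Trh holds it, at -57. The cyclic AMP element TGACGTCA (1.55% of stretches) and the TCF/LEF element CTTTGAT (3.21%) were not found before any of the 8 genes. A match is a description of the letters and not a measured binding site.

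Prkcd, the gene for protein kinase C delta, rose on the lesioned side in both genotypes. It lies at chr14:30595354-30626208 on the minus strand. Prkcd was 30.8, 26.7 and 59.5 CPM in wild-type contralateral and 120.5, 80.7 and 116 CPM in wild-type ipsilateral libraries. In DKK1 mice it was 40.3, 57.9 and 65.7 CPM on the contralateral and 102, 116 and 126 CPM on the ipsilateral side. The sides did not overlap in either genotype, and every pair of equal number was higher on the ipsilateral side, by 1.92 to 3.91 times. The log2 fold change was 1.44 ± 0.28 in wild-type (adjusted p = 0.00283) and 1.07 ± 0.28 in DKK1 mice (adjusted p = 0.00780). Between genotypes the log2 fold change was 0.12 ± 0.27 on the ipsilateral side, with a 95% interval from -0.48 to 0.72.

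Microglia and macrophages are also known to express Prkcd, and the summed markers of each were higher on the ipsilateral side too. The summed microglia list of 7 genes was 254.9 to 374.7 CPM in wild-type contralateral, 569.3 to 888.7 in wild-type ipsilateral, 245.5 to 314.1 in DKK1 contralateral and 828.9 to 902.4 in DKK1 ipsilateral libraries. Within groups, this sum and Prkcd ordered the libraries alike only in wild-type ipsilateral. Wild-type contralateral 1 had the highest sum of its group (374.7 CPM), and Prkcd there was 30.8 CPM, against 59.5 CPM in number 3. Of its 7 genes, 6 rose on the ipsilateral side in wild-type and 7 in DKK1 mice. Of all genes, 37.2% and 50.1% passed there, in either direction. The smallest p was that of Csf1r, the receptor for colony-stimulating factor (log2 fold changes 1.42 ± 0.14 and 1.90 ± 0.15). Of 5 macrophage genes 3 rose in each genotype, with Cd68, a lysosomal protein of phagocytes, at 2.72 ± 0.23 and 3.67 ± 0.25, and none of the 5 was at 0 in any group. The part of these cells in the Prkcd result was not tested.

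Tcf7l2, a transcription factor that works with beta-catenin downstream of Wnt and shapes thalamic and habenular neurons, rose on the lesioned side in wild-type mice. It lies at chr19:55741810-55933655 on the plus strand. Tcf7l2 was 11.5, 12.6 and 23.6 CPM in wild-type contralateral and 41.6, 24.5 and 46.6 CPM in wild-type ipsilateral libraries. DKK1 libraries held 17, 30.1 and 19.2 CPM on the contralateral and 26.0, 29.4 and 30 CPM on the ipsilateral side. The wild-type sides did not overlap, by the narrow margin of 23.6 against 24.5 CPM, and the DKK1 sides did.

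The log2 fold change of Tcf7l2 was 1.25 ± 0.31 in wild-type mice (adjusted p = 0.00980) and 0.36 ± 0.31 in DKK1 mice (adjusted p = 0.355). The difference between these changes was -0.89 ± 0.43 and did not pass (adjusted p = 0.550). Committed oligodendrocyte precursors also express Tcf7l2, and 5 of 5 of their markers rose on the ipsilateral side in each genotype, with summed levels of 275.3 to 302 CPM in contralateral and 382.8 to 428.6 CPM in ipsilateral libraries. Their part in the Tcf7l2 result was not tested.

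Rora, a nuclear receptor found in thalamic relay neurons, in layer 4 of the cortex and in Purkinje cells, went the other way. It lies at chr9:68653786-69388246 on the plus strand. Rora was 109, 99.1 and 104 CPM in wild-type contralateral, 83.9, 94.5 and 95.6 CPM in wild-type ipsilateral, 107, 103 and 106 CPM in DKK1 contralateral and 82.4, 74.9 and 73.2 CPM in DKK1 ipsilateral libraries. Both ipsilateral groups lay below their contralateral groups without overlap, and all 6 pairs of equal number were lower on the ipsilateral side. Relative to all genes, Rora fell by 0.19 ± 0.06 on the log2 scale in wild-type (adjusted p = 0.0359) and by 0.46 ± 0.06 in DKK1 mice (adjusted p = 0.000123), but scaled on pan-neuronal genes it rose in wild-type mice (0.18, adjusted p = 0.0405) and did not pass in DKK1 mice.

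The wild-type Rora call was lost without wild-type contralateral 1, contralateral 3 or ipsilateral 1, and with libraries scaled by total counts. DKK1 ipsilateral libraries were all below wild-type ipsilateral ones, with a log2 fold change of -0.25 ± 0.06 that did not pass (adjusted p = 0.0621). That difference passed in DESeq2 (with 6.65% of all genes), with total-count scaling (1.94%), and without either wild-type ipsilateral 1 (14.3%) or DKK1 ipsilateral 1 (6.01%). Other short gene models lie within Rora, 1 on each strand, and share part of its span.

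**Figure D2:**
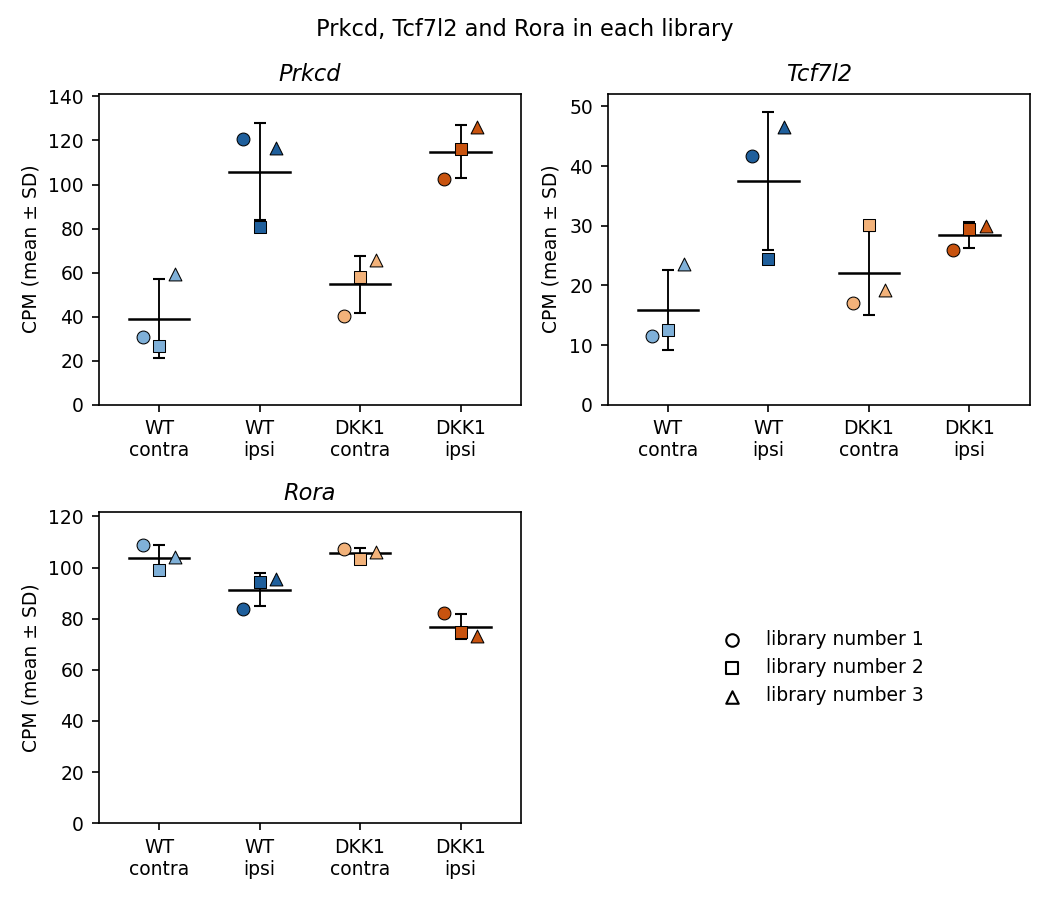
CPM of Prkcd, Tcf7l2 and Rora in each library, with axes from 0; horizontal bars and whiskers are mean and SD of 3 libraries, and markers show the library number. The ipsilateral Prkcd libraries (80.7 to 126 CPM) all lie above the contralateral ones (26.7 to 65.7 CPM), and Rora lies lower on the ipsilateral side.

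Between the sides of wild-type brains, 4 of the 8 genes passed, with Prkcd, Tcf7l2 and Oxt higher and Rora lower. This stands against a background of 37.2% of all genes tested. The median log2 fold change of the 8 was 1.82, beside 0.01 over all genes tested. The sides did not overlap for the same 4 genes, and for 50.3% of all genes. With the library number as a block, which assumes the pairing, Avp and Hcrt passed as well. That made 6, while the share of all genes rose to 45.3%. With pan-neuronal scaling 5 passed, all higher, against 60.7% of all genes: Trh was added and Rora turned. Without wild-type ipsilateral 1, the library that stood apart, Prkcd, Tcf7l2 and Oxt still passed, against 25.1% of all genes. In DKK1 brains 2 of 8 passed, Prkcd higher and Rora lower, against 50.1% of all genes, and these 2 were also the ones without overlap, against 59.9%. The median there was 0.52, beside 0.01 over all genes, and with the block Avp made 3, against 56.2% of all genes.

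Between genotypes no member passed on either side in edgeR or in limma-voom. On the ipsilateral side this was 0 of 8 beside 2.37% of all genes in edgeR, and 1 (Rora) in DESeq2, beside 6.65%. At an unadjusted edgeR p under 0.05 it was 1 (Rora), beside 20.9% of all genes. Only Rora did not overlap, 1 of 8 beside 20.6% of all genes, and the median of the 8 was -0.19 beside 0.02 over all genes. On the contralateral side it was 0 of 8 beside 0.88% of all genes in edgeR, and 0 in DESeq2, beside 1.52%. At an unadjusted edgeR p under 0.05 it was 2 (Oxt and Avp), beside 6.08% of all genes. Oxt alone did not overlap, beside 11.9% of all genes, and the median was 1.23 beside -0.002 over all genes. All 8 fitted values were above 0 there.

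The test of whether the change between sides differed by genotype passed for 0 of 8 genes, beside 0.00568% of all genes. Rora was at an unadjusted p of 0.0102 and an adjusted p of 0.437, and DESeq2 and limma-voom called none of the 8 either. All 8 interaction values were below 0, from -0.27 ± 0.09 for Rora to -4.68 ± 2.33 for Hcrt. These comparisons share their libraries: the wild-type contralateral group, where wild-type contralateral 1 and 2 held 1 to 9 counts of Oxt, Hcrt and Pmch, enters the contralateral genotype comparison, the wild-type comparison of sides and the interaction.

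**Figure D3:**
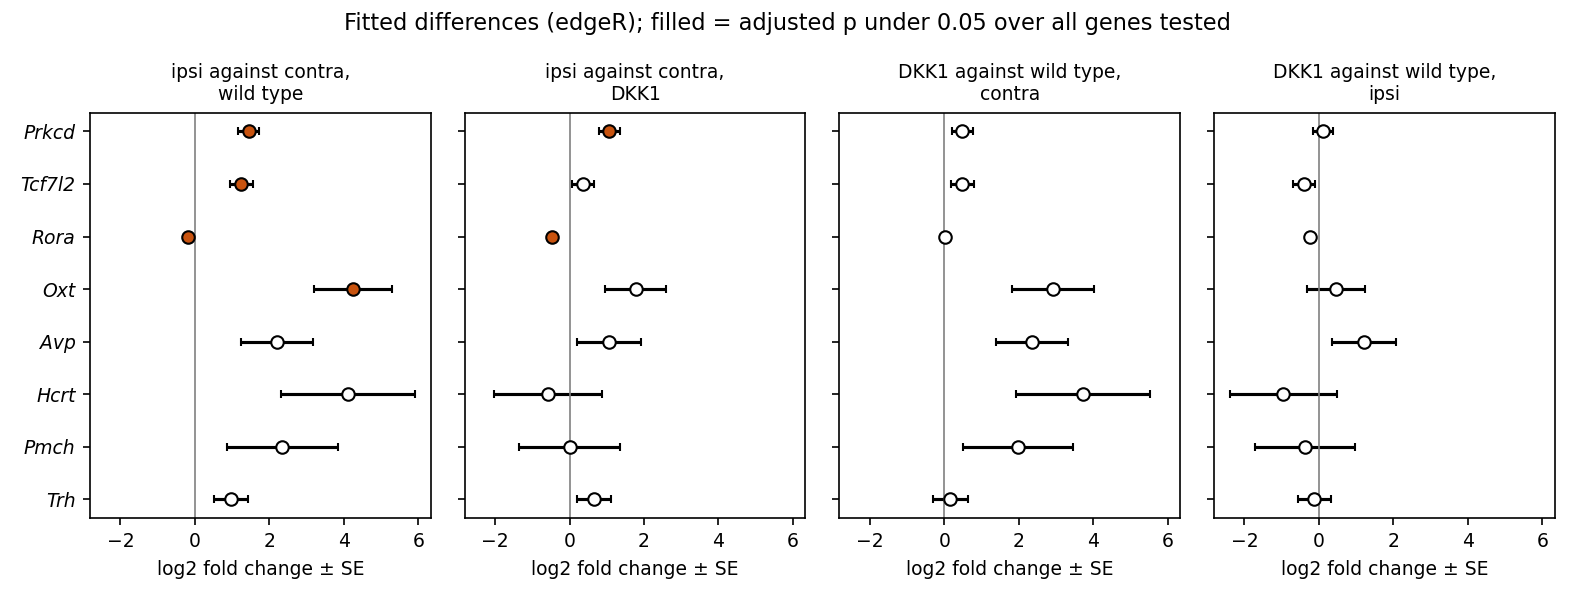
Log2 fold change ± SE from edgeR for the 8 genes in 4 comparisons; filled points passed the adjusted p threshold of 0.05 over all genes tested. Error bars of Hcrt and Pmch are the longest, and filled points are 4 and 2 in the comparisons of sides and none between genotypes.

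The genes differed far more in spread than most genes do. The biological coefficient of variation, edgeR's estimate of the relative spread between libraries of a group, was 1.25 for Hcrt, 1.199 for Pmch, 0.798 for Avp and 0.731 for Oxt, against a median of 0.0997 over all genes tested. At least 99.64% of genes had a smaller value than each of these. Trh (0.379), Tcf7l2 (0.262) and Prkcd (0.238) lay lower, and Rora at 0.0606 was below the median. Over the 12 libraries the highest level was 485 times the lowest for Oxt, 265 times for Pmch, 234 times for Avp and 148 times for Hcrt, and 4.73 times for Prkcd, 4.06 times for Tcf7l2 and 1.49 times for Rora.

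Some of the genes shared their spread. Deviations from the group mean were compared over the 12 libraries, on log2 CPM, as a description. These points share tissue piece and library. Pmch went with Prkcd (Pearson r = 0.919, Spearman rho = 0.902) and with Hcrt (r = 0.906, rho = 0.902), and Oxt with Trh (r = 0.891, rho = 0.902) and with Avp (r = 0.839, rho = 0.741). Prkcd went with Tcf7l2 (r = 0.826, rho = 0.741). Rora stood outside this pattern, with r between -0.443 and 0.192 against the other 7 genes. Without the 2 libraries farthest from the median of Prkcd, its r with Pmch was 0.879, and the same step on Oxt left its r with Trh at 0.91. Some weaker pairs dropped further. Prkcd with Avp went from 0.645 to 0.268, Prkcd with Oxt from 0.576 to 0.340, and Avp with Hcrt from 0.543 to 0.419. Others rose: Prkcd with Hcrt from 0.807 to 0.925, Tcf7l2 with Hcrt from 0.681 to 0.728 and Prkcd with Trh from 0.597 to 0.618. Prkcd with Rora went from -0.216 to -0.535.

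The 5 peptide genes together made 4.49 CPM in wild-type contralateral 2 and 7.5 in wild-type contralateral 1, the lowest of all libraries. They made 167 CPM in DKK1 ipsilateral 3, the highest, and 100.05 and 99.0 CPM in wild-type ipsilateral 1 and 3. Within a genotype, a library of one side thus exceeded several of the other side: DKK1 contralateral 3 had 90.5 CPM, above DKK1 ipsilateral 1 (81.8) and 2 (23.6). Wild-type ipsilateral 2 had 13.6 CPM, below wild-type contralateral 3 (30.5).

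**Figure D4:**
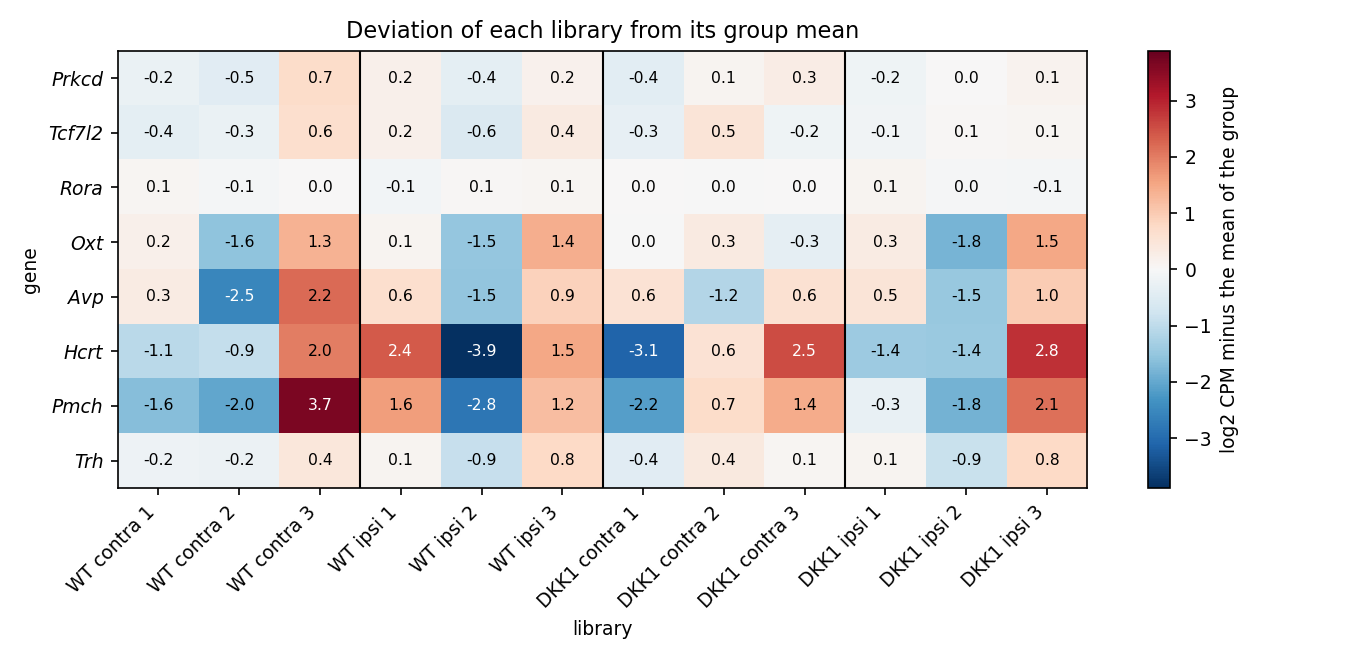
Deviation of each library from its group mean in log2 CPM, for the 8 genes (rows) and 12 libraries (columns, grouped by lines); red is above and blue below the mean. Number 3 is red and number 2 blue for most peptide genes in 3 of the 4 groups, and Rora stays near 0.

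By the same measure, the genes nearest to each member over the 12 libraries were named. They were picked as the highest r among 17612 genes, so a high r follows in part from the choice. Nearest to Oxt were Grin2d (r = 0.964), an NMDA receptor subunit, Arhgap36 (0.959) and Calcr (0.948), the calcitonin receptor and a hypothalamic marker. Nearest to Tcf7l2 were Shox2 (0.931), a homeobox factor, Xab2 (0.926) and Serpina3n (0.914). Shox2 ranged from 0.47 to 10.2 CPM over all libraries. Nearest to Prkcd were Phactr4 (0.973), Zfp595 (0.948) and Tefm (0.935).

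Pmch was nearest to Parpbp (0.989), the gene that overlaps it, then Gkap1 (0.936) and Cldn19 (0.931). Hcrt was nearest to Gkap1 (0.972), Hsdl1 (0.970) and Tacr3 (0.955), the neurokinin B receptor. Trh was nearest to Celf6 (0.969), Cbln1 (0.958) and Ankrd24 (0.955), and Avp to Abhd12b (0.911), Adamts19 (0.909) and Mir3102 (0.899). Levels were low for Mir3102 (mean 0.349 CPM, rho = 0.699 with Avp) and Abhd12b (mean 0.766 CPM). Rora was nearest to Ap3b2 (0.958), Rab3c (0.950) and Galntl6 (0.949); Ap3b2 and Rab3c are vesicle traffic genes of neurons.

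Other markers of the same regions were read beside the members. For each list of regions, the background was 37.2% of all genes passing between sides in wild-type and 50.1% in DKK1 mice. Of 12 further thalamic genes, 6 rose and 1 fell on the ipsilateral side in wild-type mice (median log2 fold change 0.41; 10 rose and none fell with pan-neuronal scaling), with the smallest p for Zic1 (1.37 ± 0.20), Amotl1 (0.60 ± 0.11), Plekhg1 (0.95 ± 0.20) and Rgs16 (0.62 ± 0.18). In DKK1 mice 2 rose and 4 fell (median -0.17), but with pan-neuronal scaling 6 rose and none fell, and with the library number as a block 4 rose and 5 fell. Zic1, a transcription factor of the medial forebrain and thalamus, rose by 1.57 ± 0.20 there. Adarb1 (-0.42 ± 0.07), Ntng1 (-0.65 ± 0.14) and Slc17a6 (-0.998 ± 0.24), the vesicular glutamate transporter of thalamic neurons, fell in that comparison relative to all genes. Adarb1 was also the gene that fell in wild-type mice. Mean Slc17a6 there changed little, from 36.1 CPM on the contralateral to 39.8 CPM on the ipsilateral side, and the libraries overlapped. Mean Ntng1 was 26.8 and 35.5 CPM, also with overlap. The rise in wild-type mice was thus not shared by all thalamic markers. Summed, the 12 genes were 604 to 730 CPM in wild-type ipsilateral and 574 to 589 CPM in DKK1 ipsilateral libraries, though none passed between the genotypes.

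The habenula borders the thalamus. Of its 5 markers, 4 rose on the ipsilateral side in wild-type mice: Chrnb4 (3.41 ± 0.72) and Chrna3 (1.76 ± 0.64), which are nicotinic receptor subunits, the transcription factor Pou4f1 (3.77 ± 1.15) and Gpr151 (2.001 ± 0.65). In DKK1 mice none passed, and the smallest unadjusted p was 0.105 (Tac2). The summed list was 39.4, 9.55 and 29.8 CPM in wild-type ipsilateral 1, 2 and 3, against 7.48 to 19.7 CPM in the other 9 libraries. Number 2, the wild-type ipsilateral library with little Hcrt and Pmch, thus also had few habenular transcripts.

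Of 12 hypothalamic transcription factors and other markers, 3 rose on the ipsilateral side in wild-type mice (median log2 fold change 1.42). They were Prlr, the prolactin receptor (1.91 ± 0.51), Sim1, the factor that forms oxytocin and vasopressin neurons (2.89 ± 0.92), and Hdc, the histamine-making enzyme (1.03 ± 0.33). In DKK1 mice 1 rose, Hdc (0.88 ± 0.33). These are 3 and 1 of 12 genes, smaller shares than the 37.2% and 50.1% of all genes that passed. With the library number as a block, 5 rose in wild-type and 1 in DKK1 mice. On the contralateral side the DKK1 against wild-type log2 fold change of Sim1 was 3.19 ± 0.91 and did not pass (adjusted p = 0.256). Of 14 other hypothalamic peptides, 10 were tested. In wild-type mice none rose, and Npy (-0.34 ± 0.11) and Sst (-0.28 ± 0.09) fell, but with pan-neuronal scaling 4 of the 10 rose and none fell; both are also made by interneurons of the cortex and striatum. Gal, at 2.60 ± 1.01, did not pass (adjusted p = 0.0643). With the block 2 rose and 2 fell in wild-type mice; in DKK1 mice 1 fell without the block, and 1 rose and 2 fell with it.

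Other regions and barriers moved as well. Of 7 hippocampal markers 4 rose on the ipsilateral side in wild-type mice (Prox1, Dsp, C1ql2 and Lct, from 1.11 ± 0.18 to 3.77 ± 0.69), and none in DKK1 mice (1 rose and 1 fell with the block). All 5 choroid plexus genes rose in wild-type mice (median 1.91), and 1, Aqp1, in DKK1 mice (2.16 ± 0.49), but all 5 rose in both genotypes with pan-neuronal scaling. Hippocampal genes with that scaling were 5 higher in wild-type and 1 in DKK1 mice. Striatal genes fell in both, with Drd2, the dopamine D2 receptor, at -1.21 ± 0.19 and -1.27 ± 0.19. Pituitary genes were nearly absent, with a sum of at most 1.196 CPM in any library. How much each of these regions adds to the 8 genes' levels was not tested.

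**Figure D5:**
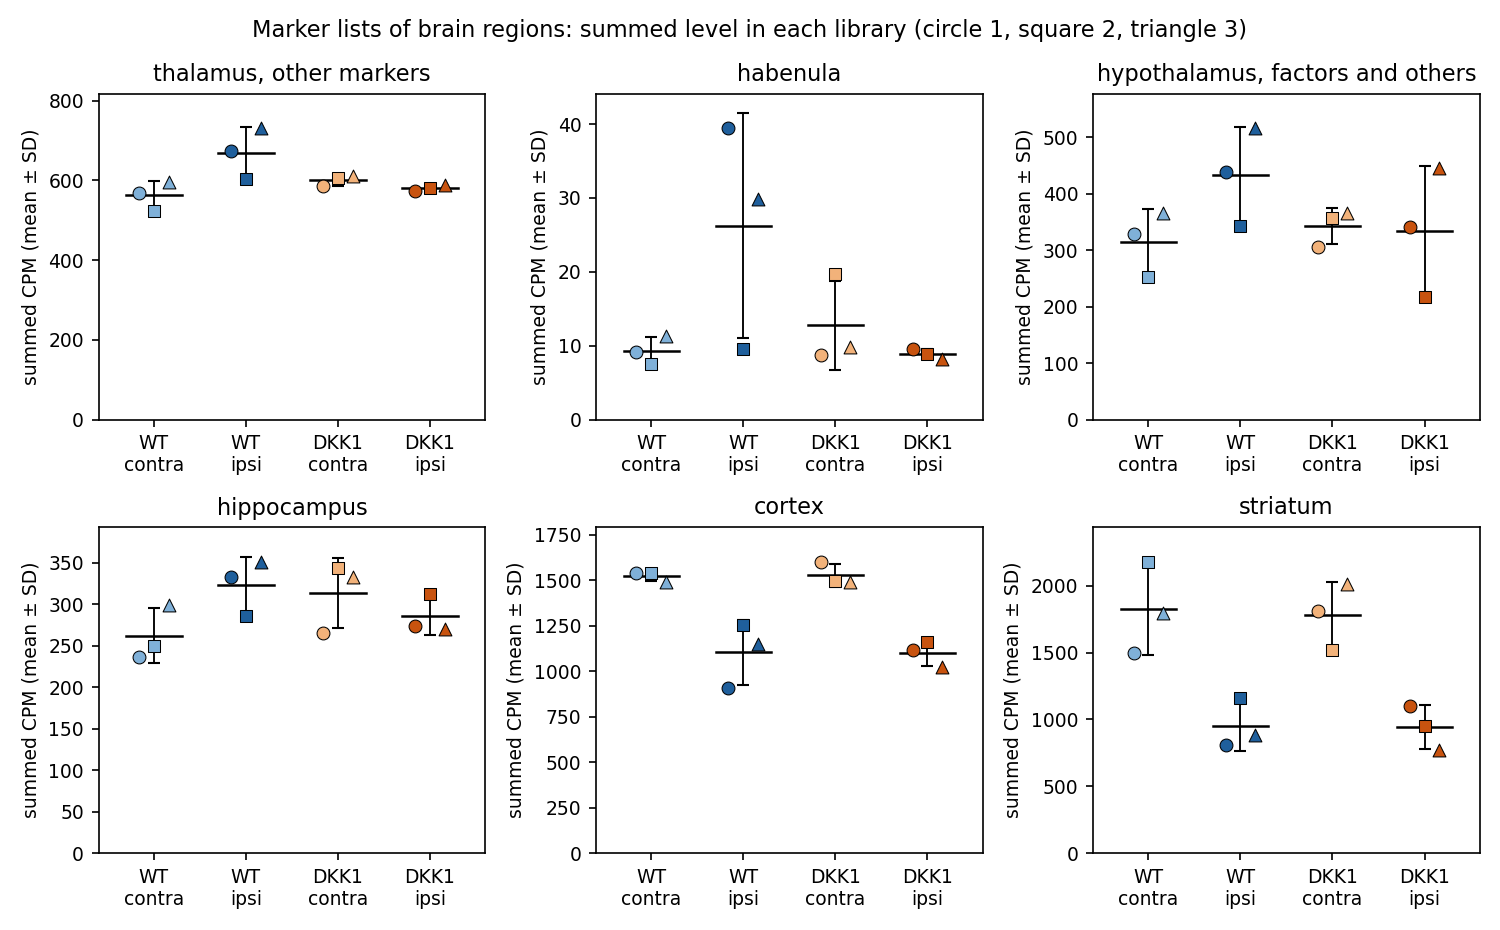
Summed CPM of marker lists of 6 brain regions in each library, with axes from 0; bars and whiskers are mean and SD of 3 libraries. Wild-type ipsilateral 1 and 3 stand above the other libraries for the habenula (39.4 and 29.8 CPM), and cortex and striatum lists are lower on the ipsilateral side in both genotypes.

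The receptors and degrading enzymes of the peptides were read beside their ligands. The background for these and the gene families below was 37.2% of all genes passing between sides in wild-type and 50.1% in DKK1 mice. Of 10 tested, 3 fell on the ipsilateral side in wild-type mice: Mchr1, the receptor for melanin-concentrating hormone (-0.80 ± 0.16), Trhr2 (-0.84 ± 0.19) and Oxtr, the oxytocin receptor (-0.54 ± 0.17). In DKK1 mice 4 fell, among them Mchr1 (-0.72 ± 0.15), Trhr2 (-0.73 ± 0.19) and Oxtr (-0.61 ± 0.17), and 2 rose, among them Avpr1a, a vasopressin receptor (1.505 ± 0.39). These receptors are also found in the cortex, hippocampus and striatum. Of 9 genes for cutting and packing of peptides, 4 fell in wild-type and 8 in DKK1 mice, with the smallest wild-type p for the convertase Pcsk2 (-0.46 ± 0.10 there and -0.52 ± 0.10 in DKK1 mice).

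The families of the thalamic members were read in the same way. Of the 8 other protein kinase C genes, 1 rose (Prkcq, 0.71 ± 0.16) and 4 fell in wild-type mice, among them Prkcz (-0.41 ± 0.08) and Prkcb (-0.47 ± 0.11), and 6 fell in DKK1 mice. Among 10 nuclear receptor and clock genes, 4 fell in wild-type mice, with Npas2, a partner of the clock, at -0.52 ± 0.09 and Rorb, a marker of cortical layer 4, at -0.73 ± 0.17. In DKK1 mice 5 of these fell. Of 9 TCF/LEF factors and partners, Tcf7l1 rose in both genotypes (0.90 ± 0.17 and 1.31 ± 0.17), alone in wild-type mice and with 2 others in DKK1 mice, where Pygo1 fell (-0.27 ± 0.07).

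These directions are relative to all genes. Scaled on pan-neuronal genes, which moved the median of all genes by 0.38 in wild-type and 0.43 in DKK1 mice and had 60.7% and 63.4% of all genes pass, the receptor list had 4 higher and 2 lower in wild-type and 3 higher and none lower in DKK1 mice. The processing list then had 4 and 3 higher and none lower, the protein kinase C list 1 and 2 higher and none lower, and the clock list 2 higher and 1 lower in each. The TCF/LEF list then had 8 of 9 higher and none lower in each genotype, Pygo1 not among the lower. The list of other hypothalamic peptides had 4 higher in wild-type and 1 in DKK1 mice and none lower, and that of hypothalamic transcription factors and others 7 and 1 higher. With the library number as a block, the clock list had 9 of 10 genes lower in each genotype, the TCF/LEF list 2 higher in wild-type mice, the receptor list 1 higher in wild-type mice and the protein kinase C list 1 higher in DKK1 mice. None of the genes of the receptor, processing, protein kinase C, clock and TCF/LEF lists, nor of the thalamic, habenular or hypothalamic lists, passed between genotypes on either side.

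Set against each other per kilobase of transcript, the members changed order between groups. In wild-type contralateral libraries Prkcd was the highest at 14.2 ± 6.48 CPM per kilobase (SD, n = 3), then Rora (9.57 ± 0.44) and Avp (7.86 ± 9.14), and Oxt was the lowest at 0.763 ± 0.758. In DKK1 ipsilateral libraries Avp led at 83.8 ± 54.9, followed by Prkcd (41.7 ± 4.34) and Oxt (19.9 ± 17.6). Avp stood above Prkcd in DKK1 ipsilateral 1 and 3 (95.2 and 132 CPM per kilobase) but below it in number 2 (24.0, against 42.2 for Prkcd).

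Across the groups, mean Prkcd, Oxt and Avp were the highest in DKK1 ipsilateral libraries and Tcf7l2, Hcrt, Pmch and Trh in wild-type ipsilateral libraries. Wild-type contralateral libraries had the lowest mean of every member other than Rora. Most neighbours in these orders overlapped. Ranges were apart only between DKK1 contralateral and wild-type ipsilateral for Prkcd, between wild-type and DKK1 contralateral for Oxt, and, for Rora, between DKK1 and wild-type ipsilateral and between wild-type ipsilateral and wild-type contralateral.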

How the data were processed

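Per the labels' protocols, brain RNA (Qiazol, miRNeasy micro kit) was made into mRNA libraries by the NEBNext Ultra II directional kit. STAR 2.7.0f, HOMER 4.11, DESeq2 and mm10 appear in the submitters' processing notes; what each did, and whether strand was used, is not given in the sources used here. Per the file headers, the authors deposited raw counts for 25124 gene symbols, 1 RefSeq transcript each, in 12 libraries, and TPM in a second table. The count headers of all libraries other than wild-type ipsilateral 1 hold the word flip, and all TPM headers hold it. What flip stands for is not given in the sources used here. Wild-type ipsilateral 1 is also the library that stood apart, and a link between these was not tested.

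Counts were analysed with edgeR 4.0.16 in R 4.3.3: expression filter (minimum count 10), TMM scaling (factors 0.963 to 1.04), 1 model of 4 groups, robust quasi-likelihood test, two-sided, Benjamini-Hochberg adjusted p under 0.05 over 17612 genes. CPM used the same library sizes. Standard errors were taken from the fold change and its F statistic. Alternatives were DESeq2 1.42.0, limma-voom (limma 3.58.1), upper-quartile, pan-neuronal and total-count scaling, no filter, limma on log2(TPM + 1) for genes with a mean TPM of at least 0.1, a replicate block (fixed in edgeR between sides, random in limma-voom between genotypes) and leaving out each library. The tests were checked on simulated data.

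Libraries were grouped and numbered from the labels. Libraries of equal number shared deviations from their group means. The r was 0.297 to 0.487 in the wild-type pairs and 0.105 to 0.276 in the DKK1 pairs, so the numbers were taken as pairs. The labels do not say whether equal numbers mark the same animal, so the pairing is an assumption drawn from these same data. The main model did not use the pairing, while the ratios of pairs and the block results depend on it. DKK1 ipsilateral 3 correlated more (0.172) with another contralateral library than with its own number.

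All members are named in each comparison, and of other lists up to 4 genes with the smallest p in the comparison described. The 3 genes nearest each member by Pearson r are named, predicted models and Rik clones left out. A gene that the rule takes is not reported here. The members and lists were chosen with earlier results of these data known. Promoters are from RefSeq (GRCm38.p6) and exons from GENCODE M21.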

Additional observations from a re-analysis of the deposited data

How the results depend on the processing

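Between genotypes on the ipsilateral side 0 members passed, against 2.37% of all genes. The number became 1 (Rora) under DESeq2, against 6.65% of all genes. It was also 1 (Rora) with scaling by total counts (1.94%), an alternative chosen after seeing the data. The number ranged from 0 to 1 when 1 library was left out. Rora then passed without wild-type ipsilateral 1 (14.3% of all genes) and without DKK1 ipsilateral 1 (6.01%). In DKK1 mice the number between sides, 2, became 1 with pan-neuronal scaling, and 2 to 3 with a library left out; in wild-type mice, where it was 4, leaving out a library gave 3 to 5, pan-neuronal scaling 5 (Trh added), DESeq2 5 (Hcrt added), and limma-voom (Oxt lost), TPM and total-count scaling (both Rora lost) 3. Between wild-type sides, leaving out wild-type contralateral 3 added Avp and Pmch and lost Rora, and leaving out wild-type ipsilateral 2 added Trh. The replicate block rests on an assumed pairing of equal numbers. It changed the calls of Avp and Hcrt in wild-type and of Avp in DKK1 mice, and no other call. It made 6 and 3 members pass. Between wild-type sides the share of all genes that passed was 37.2%. It was 25.1% to 37.5% with a library left out, and 60.7% with pan-neuronal scaling. It was 39.7% under DESeq2, 36.5% under limma-voom, 30.7% on TPM, 34.7% with total-count scaling and 45.3% with the block. Between DKK1 sides the share was 50.1%. It was 41.1% to 48.8% with a library left out, 63.4% with pan-neuronal scaling and 56.2% with the block. Rora changed sign with pan-neuronal scaling between contralateral groups (-0.0314) and between wild-type sides (0.18, adjusted p = 0.0405). Pmch between DKK1 sides, near 0, was -0.00628 under DESeq2, -0.28 under limma-voom, -0.0322 with upper-quartile scaling, -0.0267 with no filter, -0.23 on TPM and -0.21 with the replicate block. With 1 library left out, values on the log2 scale that changed sign ran, between ipsilateral groups, from -2.12 to 0.23 for Pmch, -0.58 to 0.34 for Trh, -0.48 to 1.40 for Oxt and -0.0430 to 0.22 for Prkcd; between contralateral groups, from -0.0352 to 0.41 for Trh and -0.0104 to 0.0560 for Rora; between DKK1 sides, from -1.75 to 0.68 for Pmch and -3.50 to 1.03 for Hcrt; and for the interaction of Trh from -0.74 to 0.18. The cause was not tested. Depth limits Oxt, Hcrt and Pmch in wild-type contralateral 1 and 2, with 1 to 9 counts.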
